A study of Paracentrotus lividus with 19 samples.

Results

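The genes named ERG and C3 were followed in embryos of Paracentrotus lividus, a sea urchin, taken whole 24 h after fertilization. The members were chosen by name: a row belonged if its name, without the prefix Sina_ and any contig suffix, read ERG or C3. This gave 3 features of the 63389 in the table. They were Sina_ERG.1.2 and Sina_ERG.2.2, contigs that carry 1 gene name, and Sina_C3. All 3 passed the filter on low counts, so 3 of the 62865 features tested stood for 2 genes. The genes were picked with earlier results of these same libraries known, so their differences from control and between zinc and iron are given as a description, without a p-value.

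The 19 libraries of poly(A) RNA comprised 4 from unexposed control embryos, 4 from embryos given Fe2O3 particles, 4 given FeCl3, 3 given ZnO particles and 4 given ZnSO4, each exposed for 24 h from the fertilized egg. Per the labels, the Fe2O3 dose was 5e-05 M, with iron at 4 mg/L. The ZnO dose was 1e-05 M, with zinc at 0.8 mg/L, and each salt supplied as much metal as its particle. The molar and mass figures are given as stated and were not reconciled with each other. Titles place the libraries in sets F1, F2 and F3. F1 held 2 libraries of each treatment but only 1 of ZnO, while F2 and F3 held 1 of each. What a set is, and whether the libraries are of separate cultures, is not in the labels. The p-values therefore measure the spread between these libraries, which may be technical. Each library came from a pellet of many pooled embryos and held 24438369 to 32801015 counts. In such bulk samples, fewer cells of a type and less RNA per cell cannot be told apart.

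ERG is a transcription factor of the ETS family, a group that binds DNA through a shared ETS domain. In embryos of another sea urchin, Strongylocentrotus purpuratus, erg works with tgif and hex in a circuit of the skeletogenic mesenchyme, the cells that lay down the larval skeleton, and it is also active in other mesoderm. C3 is the central protein of the complement system: its cleavage exposes a reactive thioester, through which it attaches to foreign surfaces and marks them for uptake by immune cells. In adult sea urchins the coelomocytes, the immune cells of the body cavity, make C3.

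Levels are given as CPM, counts scaled to the effective size of each library. The table gives no feature lengths, so levels are compared between libraries and never between features. In control embryos ERG.1.2 stood at 59.8 and 64.0 CPM in the F1 libraries, at 72.1 in F2 and at 71.7 in F3. With Fe2O3 the values of ERG.1.2, in the same order, were 62.4, 61.1, 71.5 and 67.2 CPM, and with FeCl3 60.2, 60.1, 68.9 and 66.7 CPM. With ZnO ERG.1.2 stood at 90.6 CPM in F1, 110.7 in F2 and 100.02 in F3. All 3 ZnO libraries lay above all 12 libraries without added zinc, which ran from 59.8 to 72.1 CPM.

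With ZnSO4 the libraries divided by set. ERG.1.2 stood at 60.7 and 60.7 CPM in the F1 libraries, within the range of the F1 controls, but at 109.5 CPM in F2 and 117.0 CPM in F3, above every library without added zinc. The ZnSO4 group therefore overlapped the controls, and its spread was the widest of the treatments at 87.0 ± 30.5 CPM (SD, n = 4), against 100.5 ± 10.0 with ZnO (n = 3), 66.9 ± 6.05 in controls (n = 4), 65.5 ± 4.74 with Fe2O3 (n = 4) and 64.0 ± 4.49 with FeCl3 (n = 4).

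The other contig, ERG.2.2, was likewise high in the ZnO libraries and in the F2 and F3 ZnSO4 libraries. It stood at 66.5 and 69.9 CPM in the F1 controls, 68.0 in F2 and 76.1 in F3. With ZnO it reached 98.5, 104.4 and 100.5 CPM in F1, F2 and F3, and the ZnO libraries did not overlap the 12 libraries without added zinc, at 66.1 to 76.1 CPM. With ZnSO4, ERG.2.2 stood at 63.4 CPM (below both F1 controls) and 68.3 CPM (between them) in F1, at 95.7 CPM in F2 and at 122.0 CPM in F3. The contigs carry the same gene name and may share reads, so ERG.2.2 is not an independent measurement. By treatment mean, ERG.2.2 ran from 101.1 ± 3.02 CPM with ZnO (SD, n = 3) through 87.4 ± 27.1 with ZnSO4 (n = 4), 70.1 ± 4.19 in controls (n = 4) and 69.6 ± 2.74 with FeCl3 (n = 4) to 68.5 ± 2.79 with Fe2O3 (n = 4). The last 3 overlapped, as did ZnO with ZnSO4.

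C3 followed the set far more than the treatment. In controls it stood at 5.35 and 4.30 CPM in F1, 14.1 in F2 and 29.4 in F3. The F1 libraries of all treatments held 4.11 to 5.46 CPM (median 4.68, 110 to 168 counts), the F2 libraries 11.4 to 21.5 CPM (median 14.1, 309 to 581 counts) and the F3 libraries 27.8 to 40.1 CPM (median 29.7, 739 to 1183 counts). No set overlapped another.

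Within F2 and F3 the zinc libraries held the highest C3 levels. In F2, C3 stood at 17.4 CPM with ZnO and 21.5 with ZnSO4, against 14.1 in the control, 13.1 with Fe2O3 and 11.4 with FeCl3. In F3 the zinc values were 38.9 CPM with ZnO and 40.1 with ZnSO4, against 29.4 in the control, 27.8 with Fe2O3 and 29.7 with FeCl3. In F1 the ZnO library, at 4.16 CPM, lay below both controls, and the ZnSO4 libraries, at 5.46 and 5.25 CPM, lay beside the higher of the controls.

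**Figure D1:**
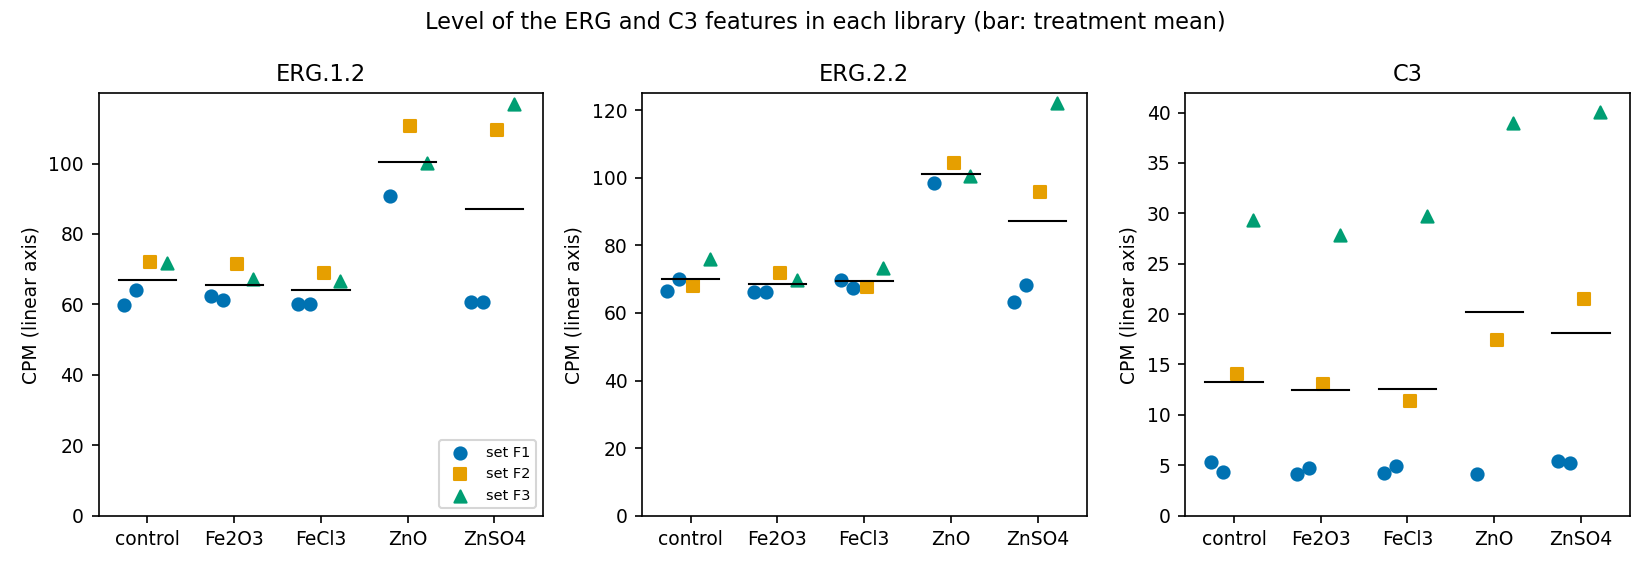
CPM of ERG.1.2, ERG.2.2 and C3 (linear axes from 0) in each of the 19 libraries by treatment, with symbols for the sets and a bar at each treatment mean. ERG was high in all 3 ZnO libraries and in the F2 and F3 ZnSO4 libraries but not in the F1 ZnSO4 libraries, whereas C3 separated the sets.

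Differences from control were taken from a single edgeR quasi-likelihood fit to all libraries with a term for set, in which a feature counts as called at a Benjamini-Hochberg adjusted p under 0.05 over all features tested. With ZnO, ERG.1.2 was higher than in controls by a log2 difference of 0.53 ± 0.12 (SE) and ERG.2.2 by 0.50 ± 0.12, and both were called, while C3, at 0.20 ± 0.12, was not. The C3 difference was 0.32 without the F1 ZnO library and 0.10 without the F3 ZnO library, uncalled in both. Over all features 2.09% were called with ZnO, and 0.948% were called as higher. Because the genes were chosen with these contrasts known, nothing is read from the members' share against that background.

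The call of ERG with ZnO was sensitive to single libraries. ERG.1.2 was no longer called without the F2 control (0.50), without the F3 control (0.51) or without the F1 ZnO library (0.47). ERG.2.2 lost its call without any of these (0.46, 0.48 and 0.43) and also without the F2 ZnO library (0.48). The size of the difference moved little in these fits.

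With ZnSO4 the log2 differences from control were 0.34 ± 0.11 for ERG.1.2, 0.29 ± 0.11 for ERG.2.2 and 0.38 ± 0.11 for C3 (SE), and none was called, against 5.42% of all features and 2.35% in the higher direction. These averages mix the sets: without both F1 ZnSO4 libraries, a choice made after seeing their ERG levels, the differences were 0.67 ± 0.07, 0.60 ± 0.08 and 0.49 ± 0.13 (SE). That choice follows the outcome, so its values only describe the F2 and F3 libraries. Single libraries also decided the calls: ERG.1.2 was called without either F1 ZnSO4 library (0.44 and 0.45), ERG.2.2 without the first of them (0.40), and C3 without the second (0.42), the first F1 control (0.45), the F2 FeCl3 (0.37) or the F1 ZnO library (0.38). In the other direction, the differences shrank to 0.19 for ERG.1.2 and 0.12 for ERG.2.2 without the F3 ZnSO4 library.

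The iron treatments left ERG and C3 near control. With Fe2O3 the log2 differences were -0.03 ± 0.11 for ERG.1.2, -0.03 ± 0.11 for ERG.2.2 and -0.11 ± 0.12 for C3 (SE). With FeCl3 they were -0.06 ± 0.11, -0.01 ± 0.11 and -0.10 ± 0.12. None was called, where 0% of all features were called with Fe2O3 and 0.027% with FeCl3. For Fe2O3 edgeR and DESeq2 each called 0 features, and 1821 had an unadjusted p under 0.05 in edgeR. All treatments were compared with the same control libraries, so these differences are not independent of each other.

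Zinc against iron uses no control library. The mean of both zinc treatments exceeded the mean of both iron treatments by a log2 difference of 0.48 ± 0.08 for ERG.1.2, 0.42 ± 0.08 for ERG.2.2 and 0.39 ± 0.08 for C3 (SE). All 3 features were called, where 7.46% of all features were called and 3.37% as higher. As with the contrasts against control, results of this contrast were known when the genes were chosen, so the calls are a description and nothing is read from them. Without both F1 ZnSO4 libraries these differences were 0.66, 0.58 and 0.46. Over all features, 7.76% differed between zinc and iron by at least as much as ERG.1.2. The shares were 10.4% for ERG.2.2 and 11.7% for C3, and they too are only a description.

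The particle and the salt of each metal were compared at equal metal concentration, which asks whether the particle form itself goes with another level. The 2 pairs and 3 features gave 6 comparisons, with p-values adjusted over all features. ERG.1.2 differed between ZnO and ZnSO4 by a log2 difference of 0.19 ± 0.12 (SE, 95% interval -0.05 to 0.43, adjusted p = 0.843), ERG.2.2 by 0.20 ± 0.11 (-0.03 to 0.44, adjusted p = 0.806) and C3 by -0.18 ± 0.12 (-0.43 to 0.07, adjusted p = 0.867). None passed the test, against 0.0779% of all features. Single libraries moved these values by over 1.5 times: they ran from 0.09 (without either F1 ZnSO4 library) to 0.35 (without the F3 ZnSO4 library) for ERG.1.2, from 0.10 to 0.39 for ERG.2.2 (without the first F1 ZnSO4 and the F3 ZnSO4 library) and from -0.28 (without the F3 ZnO library) to -0.06 (without the F1 ZnO or the F2 ZnSO4 library) for C3. Without both F1 ZnSO4 libraries the ERG differences took the other sign, -0.12 for ERG.1.2 and -0.08 for ERG.2.2, and again were not called.

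Between Fe2O3 and FeCl3 the log2 differences were 0.03 (95% interval -0.19 to 0.26) for ERG.1.2, -0.02 (-0.24 to 0.20) for ERG.2.2 and -0.01 (-0.25 to 0.23) for C3, and each had an adjusted p of 1. Of all features 0.0732% passed. These intervals, and not the missed threshold, show how far the iron forms could differ given the spread between these libraries, which may be technical. That spread is shared by all treatments: without both F1 ZnSO4 libraries the SE for ERG.1.2 fell from 0.109 to 0.0576.

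In these libraries the treatment differences of ERG varied between the sets. Within F1, F2 and F3 the log2 difference of ERG.1.2 between ZnO and control was 0.55, 0.62 and 0.48. Between ZnSO4 and control it was -0.03, 0.60 and 0.71, so that the F1 value stood apart from those of F2 and F3. ERG.2.2 gave 0.53, 0.62 and 0.40 with ZnO and -0.05, 0.49 and 0.68 with ZnSO4. Between particle and salt the within-set differences of ERG.1.2 were 0.58, 0.02 and -0.23, and those of ERG.2.2 were 0.58, 0.13 and -0.28, which is why the pooled value is small.

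Tested together, the 8 set-by-treatment terms passed for ERG.1.2 (F = 8.24, adjusted p = 0.00103) and for ERG.2.2 (F = 7.65, adjusted p = 0.00175) in edgeR's quasi-likelihood test, against 3.93% of all features. They did not pass for C3 (F = 2.14, adjusted p = 0.443). The spread in this fit comes from the 4 pairs of F1 libraries alone, with 4 residual degrees of freedom, so the lone F2 and F3 libraries are assumed to vary as the F1 pairs do. Both ERG calls ended without the F1 ZnSO4 libraries (F = 0.411 and 1.28, adjusted p = 0.981 and 0.856), and that of ERG.2.2 also without the F3 ZnSO4 library (F = 3.49, adjusted p = 0.166). A fit that lacks ZnSO4 in a set tests fewer terms and cannot show whether ZnSO4 differed in that set.

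The terms were then tested separately for 6 contrasts, a choice made after seeing the values. The adjusted p-values of these tests do not cover that choice, so they only describe these libraries. For ZnSO4 against control the set terms passed in ERG.1.2 (F = 18.6, adjusted p = 0.000745) and ERG.2.2 (F = 16.5, adjusted p = 0.00153), against 3.75% of all features. Without both F1 ZnSO4 libraries F was 0.413 and 1.38, but that test compared only F2 with F3 and could not show the F1 departure. For ZnO against ZnSO4 they passed in ERG.1.2 (F = 16.5, adjusted p = 0.0026) and ERG.2.2 (F = 17.2, adjusted p = 0.00201), against 2.47%. This particle against salt result rests on few libraries. No call was made in either contig without the F1 ZnO library (F = 2.4 and 6.56) or without both F1 ZnSO4 libraries (F = 2.29 and 6.49). Those fits compared only F2 with F3, so they could not show the F1 departure. In ERG.2.2 the call was also absent without the F3 ZnO (9.32) or the F3 ZnSO4 library (9.93), where only F1 and F2 were compared.

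The set terms of ZnO against control did not pass for ERG.1.2 (adjusted p = 0.949), ERG.2.2 (adjusted p = 0.856) or C3 (adjusted p = 0.523), where 1.42% of features passed. For C3 the within-set differences from control in F1, F2 and F3 were -0.20, 0.31 and 0.41 with ZnO and 0.16, 0.61 and 0.45 with ZnSO4. Its set terms did not pass for ZnSO4 against control either (adjusted p = 0.562). The set terms of the 3 iron contrasts passed in none of the members, where they passed in 0.00159% of features for Fe2O3 against control, in 0% for FeCl3 against control and in 0.00159% for Fe2O3 against FeCl3.

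**Figure D2:**
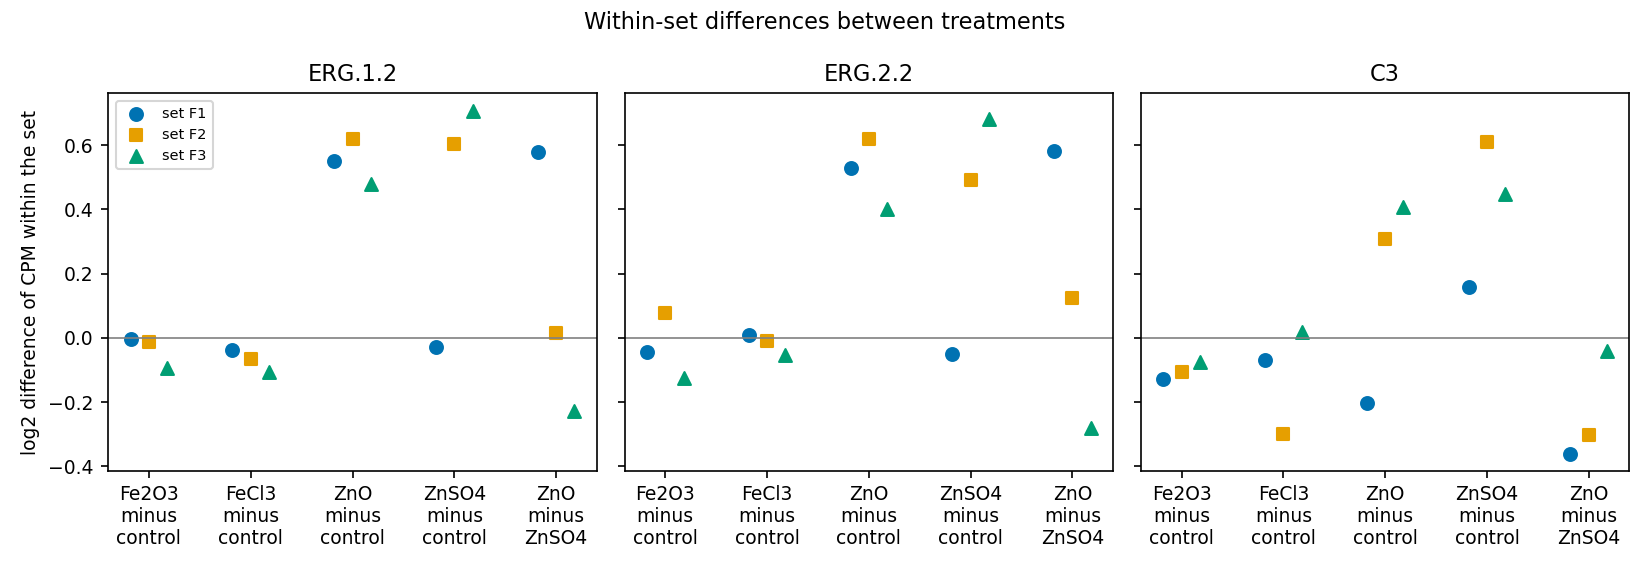
Log2 difference of CPM within each set (linear axis of log2 values) for 4 treatments against control and for ZnO against ZnSO4, one point per set, with a line at 0. The ERG points for ZnSO4 minus control lie near 0 in F1 and between 0.49 and 0.71 in F2 and F3, while the points for ZnO minus control lie between 0.40 and 0.62 in all sets.

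The F1 ZnSO4 libraries stood apart in more than ERG. After set means were removed, principal components were taken over all tested features. On the first (19.6% of the variance) all zinc libraries had positive scores and all 12 libraries without added zinc negative ones. The F1 ZnSO4 pair scored highest there, with 68.8 and 72.7, against 15.2 to 55.1 for the other 5 zinc libraries. On the second (9.79%) that pair scored -39.8 and -49.4, against 20.9 to 38.3 for the other 5. On this second axis the libraries without added zinc scored 0.973 to 16.1 in F1 and -28.6 to -10.4 in F2 and F3. HSP74.1.2, which carries the name of a heat shock protein, a chaperone induced by protein damage, stood at 30.1 and 32.6 CPM in the F1 ZnSO4 libraries. In the other 17 libraries it stood at 0.296 to 2.19 CPM. The other HSP74 feature, HSP74.2.2, stood at 30.0 and 33.6 CPM against 0.90 to 8.39 CPM in the other 17, highest of these in the F1 ZnO library. HSP74 was on none of the gene lists. Metallothionein, a zinc-binding protein encoded by 23 features of the table, summed to 11480 and 10780 CPM in the F1 ZnSO4 libraries, within the 8652 to 12680 CPM of the other zinc libraries and above the 3207 to 7679 CPM of the 12 libraries without added zinc. The part of this state in the ERG values was not tested.

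Marker sums of endoderm and ectoderm, but not of apical plate, also lay below the F1 controls in those libraries. The 4 features of the endoderm and gut list (2 of its 3 names, ENDO16 and EVE, had features) summed to 219.8 and 246.4 CPM in the F1 ZnSO4 libraries, against 593.4 to 659.1 in the F1 controls and 447.2 in the F1 ZnO library. The 7 ectoderm features (3 of 5 names) summed to 1394 and 1559 CPM, against 2520 to 2748 in the F1 controls and 2124 with ZnO in F1. The 3 apical plate features (2 of 2 names) summed to 94.7 and 98.6 CPM, as in the F1 controls at 77.7 to 99.5, while the other zinc libraries held 9.19 to 20.8. In the fit over all sets with ZnSO4, 3 ectoderm features and 1 endoderm feature (EVE) were called as lower, and 0 apical plate features. With ZnO, 1 ectoderm, 0 endoderm and 3 apical plate features were called as lower. None of these features was called as higher. The ectoderm sum also joins differing signs, such as 0.28 for ARS.1.5 and -1.94 for DLX with ZnSO4. The 7 skeleton features (5 of 12 names) summed to 641 and 658 CPM, against 653 to 699 in F1 controls, but the sum joins members that differ in sign. Over all sets, SM30A.1.2, a spicule matrix gene, was called as lower with ZnO (log2 -0.84 ± 0.14, SE) and with ZnSO4 (-0.86 ± 0.13), as was SM30A.2.2 (-0.63 and -0.57). SM30 (-0.59) and SM29 (-0.24) were called as lower with ZnSO4. PM27, another skeletal matrix gene, was called as higher with ZnO (0.34 ± 0.08). Of the 7 skeleton features, 2 were thus called as lower and 1 as higher with ZnO, against 1.14% and 0.948% of all features. With ZnSO4, 4 were called as lower and 0 as higher, against 3.07% and 2.35%. No listed marker of pigment cells or of cilia had a feature, so the makeup of the cells that might carry C3 could not be read. The part of cell makeup in the ERG and C3 values was not tested.

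Which contrasts entered the choice of the genes is not stated, so it is not known whether set contrasts did. C3 was higher in F2 than in F1 by a log2 difference of 1.68 ± 0.09 (SE, adjusted p = 6.73e-14) and higher in F3 than in F1 by 2.79 ± 0.09 (adjusted p = 3.01e-18). From F2 to F3 the difference was 1.11 ± 0.10 (adjusted p = 5.88e-10). In linear terms the F3 level was 6.9-fold and the F2 level 3.2-fold that of F1. Differences between sets were the rule in this table, with 70.5% of features called for F2 against F1, 69.4% for F3 against F1 and 64.2% for F3 against F2. Over all features 17.5% differed between F2 and F1, and 8.8% between F3 and F1, by at least as much as C3.

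ERG differed less between sets. ERG.1.2 was higher in F2 than in F1 by 0.36 ± 0.09 (SE, log2, adjusted p = 0.000697) and in F3 than in F1 by 0.33 ± 0.09 (adjusted p = 0.00173), and F3 and F2 differed by -0.03 ± 0.10 (adjusted p = 0.782). Part of this came from the F1 ZnSO4 libraries: without them the ERG.1.2 differences were 0.21 and 0.17, still called. For ERG.2.2 the F2 against F1 difference of 0.15 ± 0.08 did not pass (adjusted p = 0.119), and the F3 against F1 difference of 0.27 ± 0.08 passed (adjusted p = 0.00744). The latter was lost without both F1 ZnSO4 libraries (0.12, adjusted p = 0.0517) and without the F3 ZnSO4 library (0.12, adjusted p = 0.126). The ordering of C3 levels by set thus exceeded the spread within sets in every library, and that of ERG did not.

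The counts of ERG divided almost evenly between its contigs. ERG.1.2 took 46.3 to 48.9% of the ERG counts in the 9 F1 libraries (median 47.8%), 49.9 to 53.4% in the 5 F2 libraries (51.5%) and 47.6 to 49.9% in the 5 F3 libraries (49.0%). Every F2 library lay above every F1 library. In F2 the control held 51.5% (exact 95% binomial interval 49.9 to 53.0), the Fe2O3 library 49.9% (48.2 to 51.5), the FeCl3 library 50.5% (48.8 to 52.1), the ZnO library 51.5% (50.1 to 52.8) and the ZnSO4 library 53.4% (52.0 to 54.7). In F1 the first control held 47.3% (45.6 to 49.0), the ZnO library 47.9% (46.6 to 49.3) and the ZnSO4 libraries 48.9% (47.3 to 50.5) and 47.0% (45.4 to 48.7). The intervals cover counting error only. Within each set the intervals of the zinc libraries overlapped those of the controls, while in F2 the interval of the ZnSO4 library lay above that of the Fe2O3 library. With 1 library of each treatment in F2, a difference between treatments in the share was not tested.

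**Figure D3:**
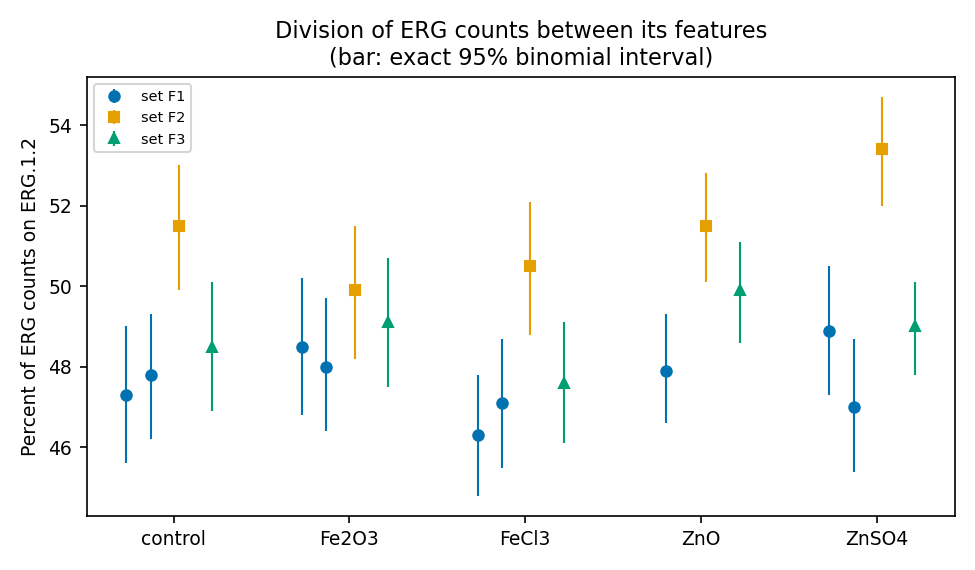
Percent of all ERG counts that fell on ERG.1.2 in each library (linear axis that does not start at 0), with exact 95% binomial intervals as bars and symbols for the sets. The F2 libraries lie between 49.9 and 53.4%, above the F1 libraries at 46.3 to 48.9%, in every treatment.

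To place the members among other named genes, log2 CPM with set means removed was correlated with each member over the 19 libraries, among 507 candidate features. These libraries form zinc and non-zinc groups, so the values describe likeness of pattern only. Nearest to ERG.1.2 were DUOX1.1.2, a dual oxidase that makes hydrogen peroxide (Pearson r = 0.928), EGIP, the exogastrula-inducing polypeptide (0.904), and ACT1.2.2, an actin (0.881). Nearest to ERG.2.2 were DUOX1.1.2 (0.894), EGIP (0.889) and CDK4, a cyclin-dependent kinase of the cell cycle (0.867). The contigs of ERG correlated with each other at 0.984 and with C3 at 0.613 and 0.549.

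DUOX1.1.2 and EGIP shared the ERG pattern in part. EGIP stood at 420.8 and 423.9 CPM in the F1 controls, at 739.2 with ZnO and at 342.3 and 326.2 with ZnSO4 in F1, whereas in F2 it stood at 120.7 in the control, 186.8 with ZnO and 201.3 with ZnSO4. In F3 the EGIP values were 357.4, 517.2 and 468.3 CPM. EGIP was thus high with ZnO in all sets and high with ZnSO4 in F2 and F3 but not in F1. DUOX1.1.2 stood at 713.7 and 750.9 CPM in the F1 controls, 945.9 with ZnO and 778.9 and 823.0 with ZnSO4, so its F1 ZnSO4 libraries lay between the control and the ZnO levels. Without both F1 ZnSO4 libraries only 1 of the 3 nearest genes of each ERG contig stayed among the nearest, DUOX1.1.2.

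Nearest to C3 were MT.10.23, a metallothionein feature (Pearson r = 0.789), PROF.2.2, a profilin, which binds actin (0.734), and DUOX1.2.2 (0.699). MT.10.23 differed from C3 in F1. It stood at 6.94 and 6.65 CPM in the F1 controls, 16.1 with ZnO and 19.2 and 20.6 with ZnSO4, while C3 in the same ZnO library lay below its controls. Reads of the MT features may be divided among near-identical contigs, so single MT values are uncertain. With sets not centred, none of the 3 nearest genes of any member was the same: those of C3 were then OST4.1.7, H2A.2.2 and GABARAP (0.960, 0.960 and 0.959).

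**Figure D4:**
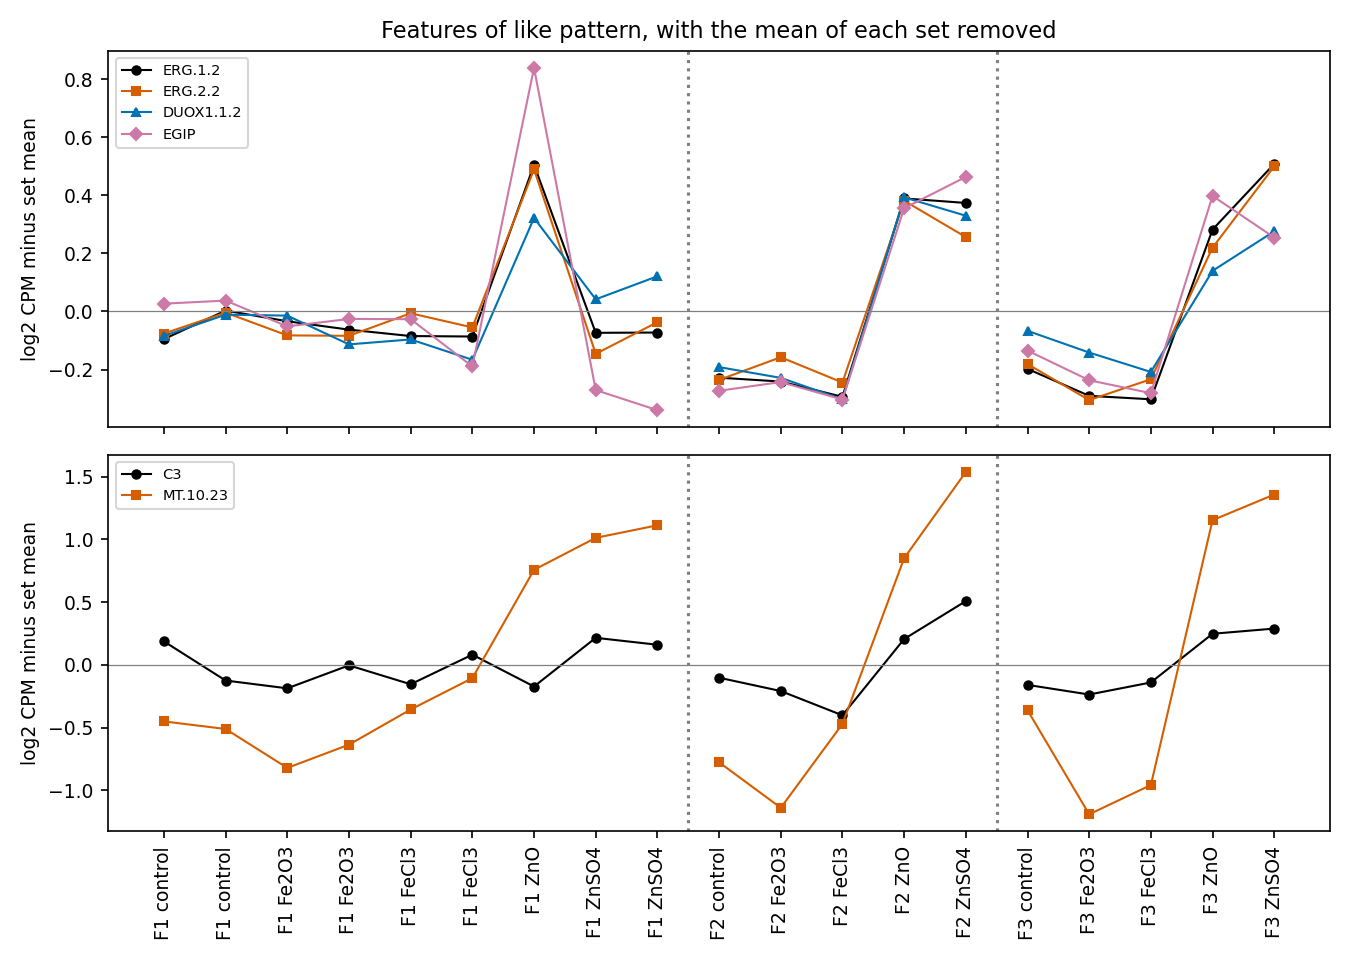
Log2 CPM minus the mean of its set in each of the 19 libraries, for both ERG contigs with DUOX1.1.2 and EGIP (upper panel) and for C3 with MT.10.23 (lower panel), on linear axes of log2 values with dotted lines between the sets. In F1 the ERG contigs lie at 0.49 to 0.51 with ZnO and between -0.15 and -0.04 with ZnSO4, and lines join points only to guide the eye.

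Other regulators of mesoderm were drawn from a list of 59 names, of which 4 had features, 7 in all: FGFR (3), FGFRL1 (2), GATAE and PROX1. No other ETS factor of the list had a feature by name. The list was chosen with earlier results known, so its calls in the same edgeR fit are a description. None of the 7 was called with ZnO, where their log2 differences from control ran from -0.14 for FGFR.3.3 to 0.35 for PROX1 and 0.948% of all features were called as higher and 1.14% as lower. With ZnSO4, 3 were called as lower and 2 as higher, where 3.07% of all features were called as lower and 2.35% as higher. The median log2 difference was 0.00 with ZnO and -0.38 with ZnSO4, against 0.00 and 0.01 over all features. None was called with Fe2O3 or FeCl3.

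The 3 features of FGFR, a receptor tyrosine kinase for fibroblast growth factors, were called as lower with ZnSO4, with log2 differences from control of -0.43, -0.45 and -0.62 (SE 0.09, 0.09 and 0.14). Both features of FGFRL1, an FGF receptor-like protein without the kinase domain, were called as higher, by 0.53 and 0.44 (SE 0.13 and 0.11), and most of that difference lay in F1. FGFRL1.1.2 stood at 35.9 and 37.5 CPM with ZnSO4 against 20.6 and 21.0 in the controls of F1, at 18.9 against 17.2 in F2 and at 30.0 against 24.5 in F3. FGFRL1.2.2 stood at 57.3 and 61.5 against 33.7 and 38.6 CPM in F1, at 26.0 against 22.8 in F2 and at 33.4 against 31.4 in F3. The F1 ZnO library was also high, at 32.6 and 54.0 CPM. The FGFR features with ZnO lay below control in F1 and F3 and above it in F2. For FGFR.1.3 the ZnO values were 79.9 against 109.0 and 109.8 CPM in F1, 109.7 against 93.6 in F2 and 121.5 against 137.1 in F3. None of the FGFR and FGFRL1 features was called with ZnO over all sets. GATAE, a GATA factor of endoderm in S. purpuratus, stood at 22.1 and 24.4 CPM in the F1 ZnSO4 libraries against 68.1 and 77.9 in the F1 controls. In F2 and F3 it lay above control with ZnSO4, at 73.3 against 49.1 and at 106.2 against 80.2 CPM, and it was not called with either zinc treatment. PROX1 with ZnSO4 stood at 57.9 and 62.05 CPM in F1 against 78.8 and 80.2 in the controls. It stood at 101.5 against 85.7 in F2 and at 97.3 against 73.7 in F3. With ZnO, PROX1 stood at 121.2 CPM in F1, 118.5 in F2 and 70.9 in F3, and it too was not called with either zinc treatment. The set-dependence of these genes was not tested.

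Of 61 names of complement, pigment and immune genes, 1 had a feature, TRIM25, an E3 ubiquitin ligase of antiviral defence in mammals. No further complement component could thus be set beside C3. TRIM25 stood at 0.65 to 1.41 CPM in F1, 12.1 to 29.3 in F2 and 2.46 to 4.21 in F3, so its sets did not overlap but F2, not F3, held the highest levels. It was higher in F2 than in F1 by a log2 difference of 4.08 ± 0.13 (SE) and in F3 than in F1 by 1.5 ± 0.15. Both were called in the edgeR fit, where 70.5% and 69.4% of all features were called. TRIM25 held only 20 to 42 counts in the F1 libraries, so its values there are uncertain. TRIM25 was higher with ZnO than with ZnSO4 by 0.97 ± 0.19 (SE) and was called there, against 0.0779% of all features. In that contrast C3 had the opposite sign and did not pass.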

How the data were processed

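The authors deposited 1 count table, with whole numbers per feature for 19 libraries and no normalization. Per the submitters' processing notes, SAMtools 1.3.1, BWA 0.7.12-r1039 and Trim Galore 0.4.0 were used, with no roles stated. Not given in the sources used here are the reference, the counter, the use of strand and the handling of multi-mapping reads, which could divide reads between the ERG contigs.

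The deposited counts were analysed in R 4.3.3 with edgeR 4.0.16 (TMM, filterByExpr on treatment, quasi-likelihood test, terms for set and treatment, 12 residual degrees of freedom). P-values were adjusted by Benjamini-Hochberg over the 62865 features tested. CPM used TMM-effective library sizes, and log2 CPM a prior count of 2. For the members, particle against salt, set contrasts and set-by-treatment terms were tested. Their other treatment contrasts, and all contrasts of listed genes, were described as called or not. For each member, the 3 features with a gene name, a mean log2 CPM of at least 1 and the highest correlation were named, together with the measured list members. The F1 pairs stayed separate, since their counts differed beyond sampling noise (chi-square over its degrees of freedom, 4.25 to 8.21). The code was tested on simulated data. Alternatives were DESeq2 1.42.0, RLE factors, other filters, other set terms, summed libraries or contigs, and libraries or sets left out. Members and lists were chosen with earlier results of these data known. A listed gene is not reported here. No sequence was used here.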

Additional observations from a re-analysis of the deposited data

Results flagged for a closer look

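In 6 results the treatment differences of ERG varied between sets by a test of the set-by-treatment terms (edgeR quasi-likelihood test, Benjamini-Hochberg over all features). The spread in these tests came from the 4 pairs of F1 libraries alone, with 4 residual degrees of freedom. F2 and F3 held 1 library of each treatment. Whether the F1 pairs are of separate cultures is not in the labels, so these tests may leave out the spread between cultures. All 8 set-by-treatment terms together gave an adjusted p of 0.00103 for ERG.1.2 and 0.00175 for ERG.2.2. Tested separately, a choice made after seeing the values, the set terms of ZnSO4 against control gave 0.000745 for ERG.1.2 and 0.00153 for ERG.2.2, and those of ZnO against ZnSO4 gave 0.0026 and 0.00201. Adjustment over features does not cover that choice. The contigs of ERG may share reads, and the contrasts share the F1 ZnSO4 libraries, so the 6 results are not independent of each other.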

How the results depend on the processing

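With RLE size factors, no filter or a stricter filter (CPM of at least 2 in 4 libraries), every difference of ERG and C3 named in the report kept its direction and call. With no set term (no replicate block) ERG.1.2 and ERG.2.2 with ZnO (0.587 and 0.528) and zinc against iron in ERG.1.2, ERG.2.2 and C3 (0.53, 0.445 and 0.612) were no longer called. F1 replicate numbers did not pair the libraries (correlation of deviations -0.0723 to 0.0495). The replicate block had to leave out the F1 ZnO library, which has no replicate number. It gave 0.475 and 0.432 for ERG with ZnO, no longer called, and 0.379 for C3 with ZnSO4, now called, but leaving out that library without a block gave the same calls (0.475, 0.432 and 0.38). Features called with ZnO were 574 with the block and 651 without it, against 1311 in the full fit. C3 with ZnSO4 was also called with DESeq2 (0.372).

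Without set F1, ZnSO4 gave 0.65 for ERG.1.2, 0.587 for ERG.2.2 and 0.523 for C3, all called, and without both F1 ZnSO4 libraries 0.67, 0.597 and 0.495. Without set F2, ERG with ZnO (0.504 and 0.457) and C3 between zinc and iron (0.281) lost their calls, the latter also without F3 (0.342). With ERG contigs summed, F2 exceeded F1 by 0.253, a call that ERG.2.2 alone lacked. Without both F1 ZnSO4 libraries ERG.2.2 between F3 and F1 (0.122) and all 6 set-by-treatment results of ERG lost their calls (F = 0.411 and 1.28 for all terms, 0.413 and 1.38 for ZnSO4, 2.29 and 6.49 for ZnO against ZnSO4). With no ZnSO4 library left in F1, the set terms of the separate contrasts compared only F2 with F3. The causes were not tested.

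Leaving out 1 library at a time, ranges with a changed call were 0.475 to 0.586 and 0.432 to 0.574 (ERG.1.2 and ERG.2.2, ZnO), 0.187 to 0.445, 0.12 to 0.402 and 0.271 to 0.449 (ERG.1.2, ERG.2.2 and C3, ZnSO4) and 0.124 to 0.309 (ERG.2.2, F3 against F1). F ran from 3.49 to 8.76 (ERG.2.2, all terms), 2.4 to 30.5 and 6.56 to 34.4 (ERG.1.2 and ERG.2.2, ZnO against ZnSO4 by set). The values 2.4 and 6.56 came without the F1 ZnO library and compared only F2 with F3. Features called ran from 651 to 1591 with ZnO and from 4 to 426 between ZnO and ZnSO4 (49 in the full fit, 193 with DESeq2). With no set term 30 were called with ZnO, 116 with ZnSO4 (3405 in the full fit) and 334 between zinc and iron (4690). Set-by-treatment terms were also fitted without set F2 and without F3, which was added after seeing the data. Without F3, all terms (5.45) and ZnO against ZnSO4 (9.67) lost their calls in ERG.2.2, and the other set-by-treatment calls of ERG held under both. With F1 summed or left out no residual degrees of freedom remain, and these terms were not run with the block. At 110 to 168 counts for C3 in F1, counting error limits its differences in that set.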
